A study of Mus musculus with 5 samples.

Results

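The neurotrophin and GDNF (glial cell line-derived neurotrophic factor) family receptors were examined as a fixed list of 9 genes: the neurotrophin receptors *Ntrk2*, *Ntrk3*, *Ngfr* and *Sort1*, and the receptors of the GDNF family *Ret*, *Gfra1*, *Gfra2*, *Gfra3* and *Ncam1*. They were taken by gene name, and all 9 were among the 20224 genes of the count table. In sorted embryonic sympathetic neurons, *Gfra3* and *Ncam1* were the most abundant of the 9 transcripts and *Ntrk2* was close to the limit of detection. None of the receptors passed the main test between *Hif1aCKO* and control neurons, and neither did any of the 15032 genes tested. The differences farthest from 0 relative to their error were a lower *Ncam1* and *Ngfr* and a higher *Ret* in *Hif1aCKO* libraries, and *Ret* still overlapped between the groups.

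RNA was sequenced from sympathetic neurons of the stellate ganglia and thoracic chain of E14.5 mouse embryos. There were 2 libraries of control neurons and 3 of *Hif1aCKO* neurons, each made from 100 sorted cells. Control neurons were *Hif1a* loxP/+; *Isl1Cre*; tdTomatoAi14 and *Hif1aCKO* neurons were *Hif1a* loxP/loxP; *Isl1Cre*; tdTomatoAi14, and embryos of both groups also carried the *Prph*-eGFP transgene. Both groups therefore shared the Cre allele, the Ai14 reporter and the eGFP transgene, and the controls carried 1 floxed copy of *Hif1a*, which encodes a subunit of the hypoxia-responsive transcription factor HIF-1. Cells were sorted for both eGFP and tdTomato, so each had a history of *Isl1Cre* activity, which is not limited to sympathetic neurons. The libraries were labelled as separate biological samples, with no statement of whether each came from 1 embryo. The question of the comparison was how loss of HIF-1α changed the transcriptome of these neurons. The total counts per library ranged from 8254211 to 9700887. *Hif1a* itself had 2086.3 and 1584.2 normalized counts in controls and 1757.5 to 2747.0 in *Hif1aCKO* libraries. The floxed exon is a small piece of the transcript, so a count over the whole gene does not check its deletion.

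Neurotrophins are secreted survival and growth factors that act on Trk receptor tyrosine kinases, with the p75 neurotrophin receptor encoded by *Ngfr* as a shared coreceptor. Ligands of the GDNF family bind a GFRα protein that is anchored to the membrane by a lipid, and the complex then engages the receptor tyrosine kinase RET. Sympathetic neuroblasts are known to use the artemin receptor GFRα3 with RET while their axons grow along blood vessels, and depend on target-derived neurotrophin after innervation.

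The labelled cell type was checked against its markers. All 12 genes listed as sympathetic neuron markers were tested, with summed levels of 8776 to 12153 CPM, the count as a share of the library total on a common scale. The list includes the general neuronal genes *Stmn2*, *Tubb3* and *Elavl4*. *Stmn2* and *Tubb3* were its highest, with means of 21614.9 and 17608.3 normalized counts over the 5 libraries. Markers of sensory neurons, of which 3 of 8 were in the table, summed to 1.91 to 4.34 CPM, with *Pou4f1* at 2 to 5 counts. Only *Tlx3* among them was tested. It had 6 and 12 counts in controls and 13, 20 and 33 in *Hif1aCKO* libraries, without overlap. One library stood apart. The markers of Schwann cell precursors and satellite glia, of which 5 of 8 were in the table, summed to 137 CPM in *Hif1aCKO* 3 and to 3.50 to 6.31 CPM in the other libraries. *Fabp7* had 926 counts there and 0 to 9 elsewhere, *Cdh19* 51 and 0, and *Sox10* 8 and 0 to 1. The 14 G2/M phase genes were all higher in *Hif1aCKO* libraries, 12 of them without overlap (25.7% of all genes tested had groups without overlap), and summed to 3565 to 4688 CPM against 2368 and 2732 CPM in controls. Of the 12 genes on the sympathetic list, 9 were lower, *Stmn2* and *Tubb3* among them. The summed levels were 8776 to 9003 CPM against 9991 and 12153 CPM. Markers of chromaffin cells summed to 426 to 965 CPM against 1052 and 1372 CPM. Of the 4 tested, 2 were higher and 2 lower, and *Chga* and *Slc18a1* overlapped between the groups. *Chgb* had 5514.2 and 8695.5 normalized counts in controls and 776.3, 4732.2 and 1106.3 in *Hif1aCKO* libraries. Motor neuron markers, of which 4 of 6 were in the table, summed to 36.5 to 60.4 CPM against 75.0 and 106 CPM. Most of this sum came from *Slc18a3* in every library. It had 611.4 and 839.4 normalized counts in controls and 285.2, 265.6 and 524.5 in *Hif1aCKO* libraries. Of the 3 tested, *Lhx4* and *Slc5a7* overlapped. *Isl2* had 0 to 7 counts per library and was not tested. The part of these markers in the receptor differences was not tested. In bulk samples, fewer cells that express a receptor and less of its RNA per cell cannot be told apart.

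Promoter windows from RefSeq on GRCm38.p6 are covered for *Ngfr*, *Ntrk2* and *Gfra1*, of which the last lay inside the annotated gene and is named only. Windows of the other receptors are not covered here, whether or not they were available. The windows of *Ngfr* and *Ntrk2*, which held bases before the gene start, are shown because HIF-1 binds a short core motif. Capitals mark ACGTG or GCGTG on either strand, which read as CACGT or CACGC on the other strand. The *Ngfr* stretch, chr11:95587736-95587948 on the minus strand, covers 213 bases before the gene start and holds 2 matches, 174 and 120 bases before that start. The *Ntrk2* stretch, chr13:58806319-58806568 on the plus strand, covers 250 bases and holds 3 matches, 228, 69 and 48 bases before the start. The *Gfra1* window of 250 bases, which is not printed, held 0 matches.
Ngfr: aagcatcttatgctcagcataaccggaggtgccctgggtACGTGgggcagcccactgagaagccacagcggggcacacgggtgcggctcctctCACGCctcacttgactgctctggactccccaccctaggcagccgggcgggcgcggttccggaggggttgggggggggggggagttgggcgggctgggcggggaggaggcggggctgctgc
Ntrk2: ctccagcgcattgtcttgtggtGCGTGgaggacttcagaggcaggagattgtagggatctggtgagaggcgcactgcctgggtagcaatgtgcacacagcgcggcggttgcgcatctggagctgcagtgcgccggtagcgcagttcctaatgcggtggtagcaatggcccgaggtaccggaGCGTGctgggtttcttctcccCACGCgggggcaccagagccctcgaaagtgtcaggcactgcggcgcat
Among 32851 windows of 250 bases before gene starts, 38.6% held at least 1 match, 16.7% at least 2 and 6.58% at least 3. The G and C content was 70.9% in the *Ngfr* stretch and 62.8% in the *Ntrk2* stretch. A match to these letters is a description of the sequence and not a binding site.

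To compare the receptors with each other, counts were divided by the length of the merged exons of each gene and by library size, which gives CPM per kilobase. *Gfra3*, the artemin coreceptor, was the highest at 249 ± 37.7 (SD, n = 5 libraries), followed by *Ncam1*, a cell adhesion molecule that can also bind GDNF, at 235 ± 43.9. Their ranges overlapped, so the order of this pair is not resolved. Both stood above *Gfra2*, the neurturin coreceptor, at 23.1 ± 4.92, without overlap. *Ret* followed at 19.1 ± 9.90, *Ngfr* at 6.95 ± 4.02, *Sort1* at 3.05 ± 0.641, *Ntrk3* at 2.44 ± 0.684, *Gfra1* at 1.08 ± 0.830 and *Ntrk2* at 0.0357 ± 0.0436. From *Gfra2* downward, each gene overlapped with the next in order, *Gfra1* with *Ntrk2* only through its 0 in *Hif1aCKO* 4. Among all genes tested, 98.9% had a lower level per length than *Gfra3* and 98.8% a lower level than *Ncam1*, against 34.0% for *Ntrk3* and 18.6% for *Gfra1*. With the longest annotated transcript as the length, *Ncam1* came first at 310.0 and *Ret* moved above *Gfra2*. *Ntrk3* at 3.74 then moved above *Sort1* at 3.38.

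**Figure D1:**
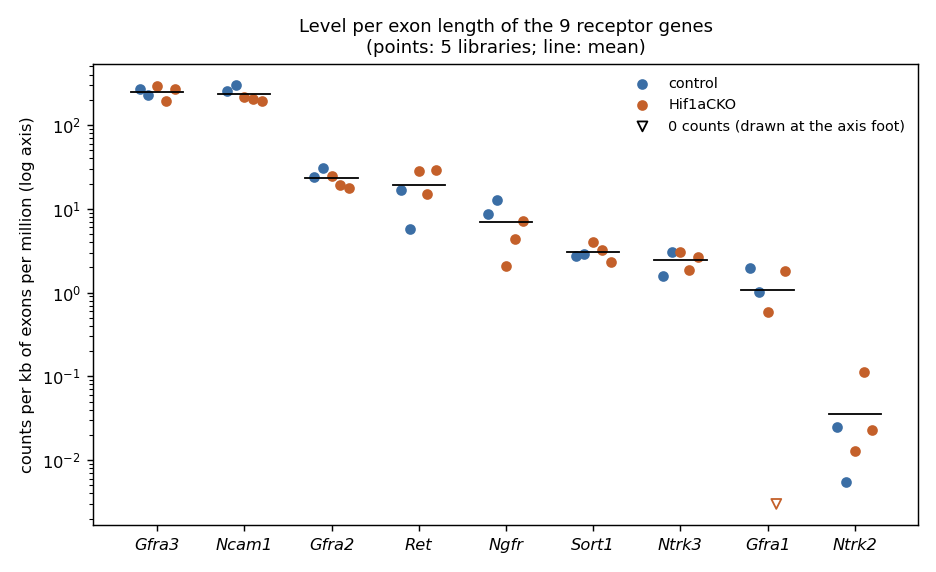
Levels of the 9 receptors per length, in CPM per kilobase of merged exons on a log axis, with 1 point for each of the 5 libraries, coloured by group, and a line at the mean of each gene. The open triangle at the foot of the axis is the 0 of *Gfra1* in *Hif1aCKO* 4. *Gfra3* and *Ncam1* lie between 195 and 302 in all libraries, and *Ntrk2* lies at or below 0.112.

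Within the sum of *Gfra1*, *Gfra2* and *Gfra3* per length, *Gfra3* made up 91.03% and 87.9% in control 5 and 6, and 92.13%, 91.04% and 93.13% in *Hif1aCKO* 3, 4 and 5. *Gfra4*, a further GFRα gene that was not among the 9 and had 18 to 37 counts per library, is left out of this sum. *Gfra2* made up 8.29% and 11.7% in controls and 7.69%, 8.96% and 6.24% in *Hif1aCKO* libraries, and *Gfra1* less than 1% in every library. The share of *Gfra3* was above both controls in every *Hif1aCKO* library, by as little as the step from 91.03% to 91.04%, and the shares of *Gfra2* and *Gfra1* overlapped. These shares were not tested, and the artemin coreceptor was dominant in all 5 libraries.

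Of the 9 receptors, 8 passed the filter on low counts and *Ntrk2* did not. None of the 8 was called by edgeR's quasi-likelihood test at an adjusted p under 0.05, and neither was any of the 15032 genes tested (0%). At an unadjusted p under 0.05 there were 3 receptors, *Ncam1*, *Ngfr* and *Ret*, where the share of all genes was 7.67%. The groups did not overlap for 2 receptors, *Ncam1* and *Ngfr*, where the share of all genes was 25.7%. DESeq2 called 60 genes in all (0.388%) and 0 of the receptors. Their log2 fold changes, written for *Hif1aCKO* against control throughout, were above 0 for 4 and below 0 for 4, with a median of -0.19 where all genes had a median of 0.01. The smallest p that an exact permutation of 2 against 3 libraries can give is 0.1.

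**Figure D2:**
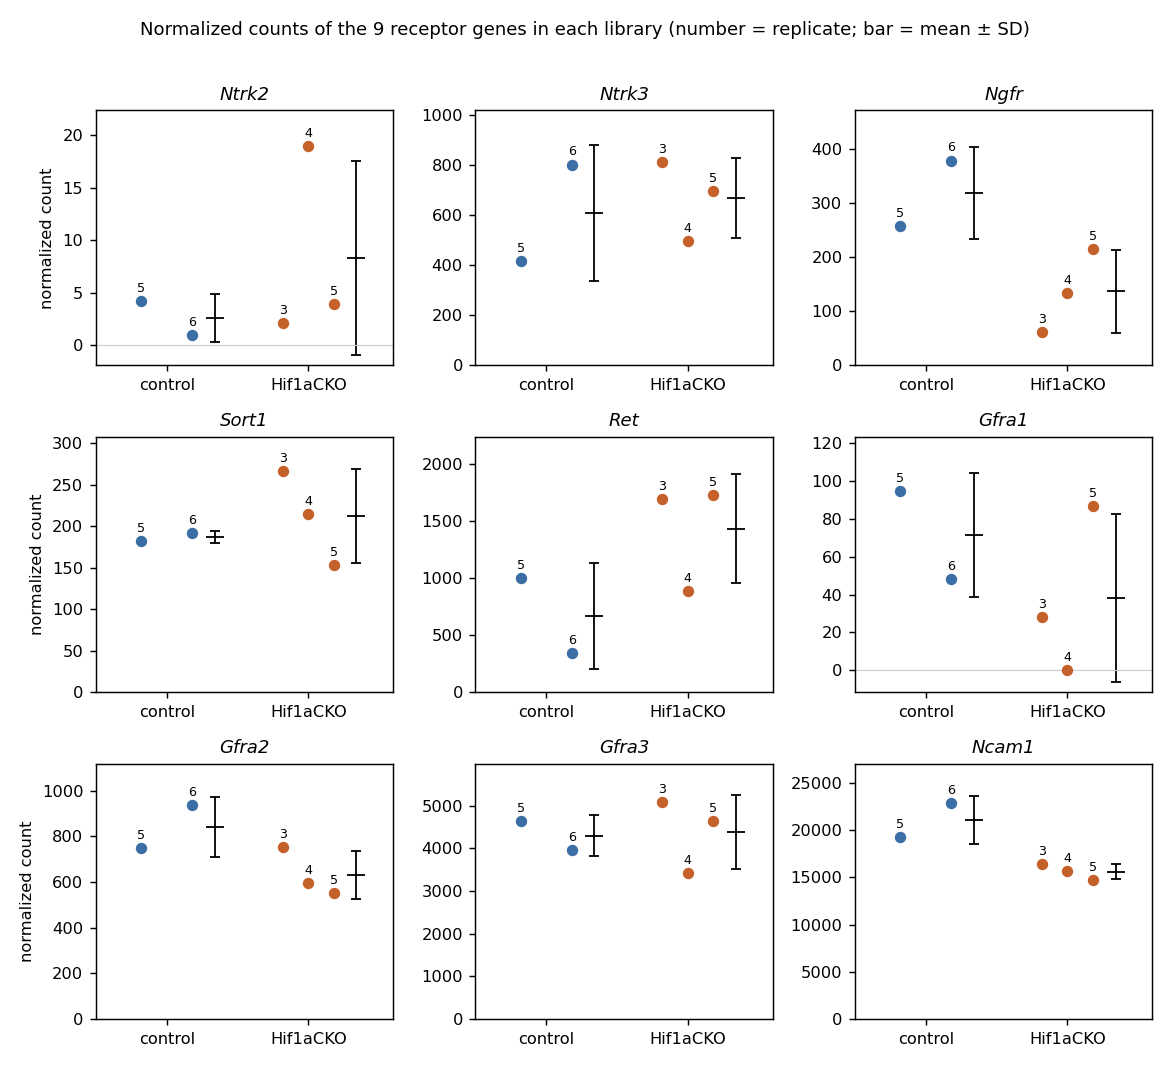
Normalized counts of the 9 receptors in each library, with 1 panel per gene, controls and *Hif1aCKO* libraries as separate points labelled by number, and bars for the mean ± SD of each group. All *Hif1aCKO* points lie below both control points for *Ngfr* and *Ncam1*, and for *Ret* control 5 lies above *Hif1aCKO* 4.

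*Ngfr* (ENSMUSG00000000120; GRCm38 chromosome 11, 95568818 to 95587735, minus strand) encodes the p75 neurotrophin receptor, which binds all neurotrophins and can pair with Trk receptors or with sortilin. It had 258.3 and 379.4 normalized counts in control 5 and 6, and 62.2, 132.8 and 215.0 in *Hif1aCKO* 3, 4 and 5. Every *Hif1aCKO* library was below both controls, and the *Hif1aCKO* values themselves were more than 3-fold apart. The means were 319 ± 85.6 (SD, n = 2) and 137 ± 76.5 (SD, n = 3), which is 2.33 times as high in controls. The log2 fold change was -1.22 with a standard error of 0.47 and a 95% interval of -2.30 to -0.14, and edgeR's adjusted p was 0.62. *Hif1aCKO* 3, the library with the highest level of glial markers, had the lowest *Ngfr*, and without it the log2 fold change was -0.88. The promoter window of this gene with its 2 core motif matches is the first of the pair printed above.

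*Sort1* (ENSMUSG00000068747; chromosome 3, 108284082 to 108361511, plus strand) encodes sortilin, a sorting receptor that forms a complex with p75 for the precursor forms of neurotrophins. Its normalized counts were 182.3 and 192.0 in controls and 267.0, 214.7 and 153.7 in *Hif1aCKO* libraries. The *Hif1aCKO* values lay on both sides of the controls, with a log2 fold change of 0.18, a 95% interval of -0.54 to 0.89 and an adjusted p of 0.93. A difference of up to 0.89 on the log2 scale is thus still within its interval. Exons of the antisense-strand gene *Gm12523* overlap 4.47% of its exon bases. The counter was run with default settings, which ignore strand, so reads there were not assigned to either gene by strand.

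*Ntrk3* (ENSMUSG00000059146; chromosome 7, 78175959 to 78738012, minus strand) encodes TrkC, the receptor of neurotrophin-3, a ligand of early sympathetic neuroblasts and sensory neurons. It had 415.6 and 801.4 normalized counts in controls and 812.7, 495.3 and 695.7 in *Hif1aCKO* libraries. The 2 controls were farther apart than any *Hif1aCKO* libraries, and the groups overlapped. The log2 fold change was 0.13 with a 95% interval of -0.59 to 0.85 and an adjusted p of 0.95. GENCODE lists 20 transcripts of *Ntrk3*, among them forms without the kinase domain, and a count per gene does not separate them.

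*Ntrk2* (ENSMUSG00000055254; chromosome 13, 58806569 to 59133970, plus strand) encodes TrkB, the receptor of BDNF, which is known in the peripheral nervous system mainly from sensory neurons. It had 4 and 1 counts in controls and 2, 19 and 4 counts in *Hif1aCKO* libraries, against a floor of 3 counts per library. *Hif1aCKO* 4 was the highest by far, and the other libraries were at or near the floor. The gene was not tested, and no fold change is given for it here. The window of *Ntrk2* printed above has more core motif matches than that of *Ngfr*, and nothing about binding follows from it.

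*Ret* (ENSMUSG00000030110; chromosome 6, 118151745 to 118197718, minus strand) encodes the receptor tyrosine kinase shared by the GDNF family ligands. Its normalized counts were 997.8 and 340.4 in controls and 1690.9, 883.7 and 1726.2 in *Hif1aCKO* libraries. The groups overlapped, because control 5 was above *Hif1aCKO* 4, and the 2 controls differed by more than the 3 *Hif1aCKO* libraries did in ratio. The means were 669 ± 465 (SD, n = 2) and 1434 ± 477 (SD, n = 3), which is 2.14 times as high in *Hif1aCKO* libraries. The log2 fold change was 1.10 with a standard error of 0.46, a 95% interval of 0.05 to 2.15 and an adjusted p of 0.64. It was 2.07 without control 5 and 0.52 without control 6, so that its size rested on the controls. Its SD over all 5 libraries, 0.95 on the log2 scale, was at or above that of 99.8% of the 500 genes closest in mean count, and that of *Ngfr*, 0.997, was at or above 99.2%. *Ret* and *Ngfr* were therefore the receptors most variable for their level among the members with a count above the floor in every library.

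*Gfra1* (ENSMUSG00000025089; chromosome 19, 58235604 to 58455909, minus strand) encodes the coreceptor of GDNF itself. It had 91 and 52 counts in controls and 26, 0 and 89 counts in *Hif1aCKO* libraries. In *Hif1aCKO* 4 the 0 allows up to 3 counts, far below the 89 counts of *Hif1aCKO* 5 in a library of like depth. The log2 fold change was -0.90 with a 95% interval of -3.79 to 1.98 and an adjusted p of 0.90, so that no direction is resolved. Of its exon bases, 7.60% overlap the antisense-strand gene *Gm16277*, and 6.17% of its 75-base stretches occur in another gene.

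*Gfra2* (ENSMUSG00000022103; chromosome 14, 70890120 to 70979838, plus strand) encodes the coreceptor of neurturin. It had 748.9 and 935.9 normalized counts in controls and 751.6, 595.2 and 550.7 in *Hif1aCKO* libraries. *Hif1aCKO* 3 was just above control 5, and the other 2 *Hif1aCKO* libraries were below both controls. The means were 842 ± 132 (SD, n = 2) and 633 ± 106 (SD, n = 3), with a log2 fold change of -0.41, a 95% interval of -0.88 to 0.05 and an adjusted p of 0.69.

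*Gfra3* (ENSMUSG00000024366; chromosome 18, 34689898 to 34720387, minus strand), the coreceptor of artemin, had 4640.3 and 3964.2 normalized counts in controls and 5082.4, 3412.1 and 4638.5 in *Hif1aCKO* libraries. The *Hif1aCKO* libraries reached from below to above both controls. The log2 fold change was 0.03 with a 95% interval of -0.39 to 0.44 and an adjusted p of 0.99, the narrowest interval of the GFRα genes. A change larger than 0.44 on the log2 scale in either direction lay outside that interval.

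*Ncam1* (ENSMUSG00000039542; chromosome 9, 49502136 to 49798925, minus strand) encodes the neural cell adhesion molecule, which holds neurons together through homophilic binding and can act as a GDNF receptor with GFRα1. It had 19294.4 and 22906.8 normalized counts in controls and 16392.2, 15641.7 and 14761.9 in *Hif1aCKO* libraries. Every *Hif1aCKO* library was below both controls, and the *Hif1aCKO* values lay within a narrow range. The means were 21101 ± 2554 (SD, n = 2) and 15599 ± 816 (SD, n = 3), 1.35 times as high in controls. The log2 fold change was -0.44 with a standard error of 0.10, a 95% interval of -0.67 to -0.20 and an adjusted p of 0.59 by edgeR, and DESeq2 gave an adjusted p of 0.091. *Ncam1* had the most precise estimate of the 8 receptors. Exons of the antisense-strand gene *Gm11149* overlap 4.81% of its exon bases.

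**Figure D3:**
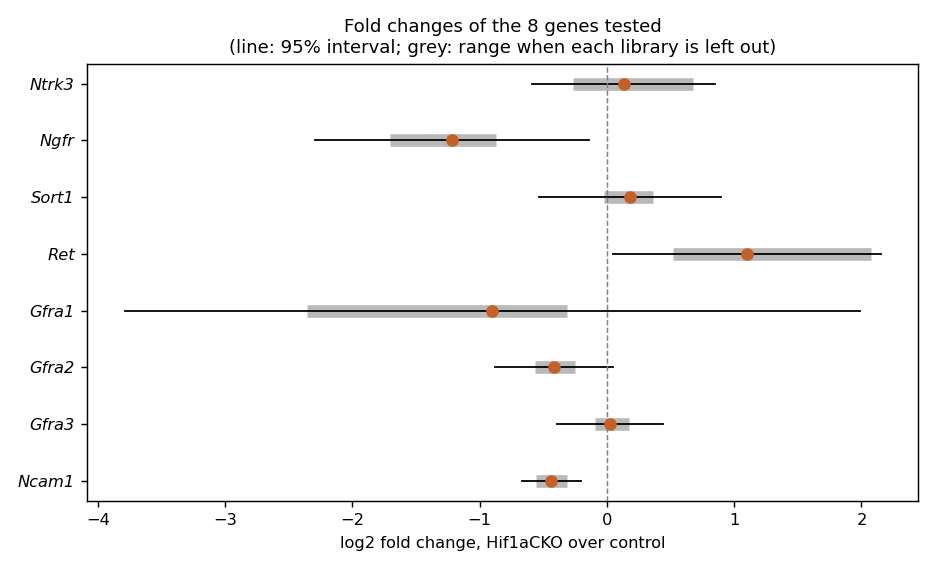
Log2 fold changes (*Hif1aCKO* against control) of the 8 receptors tested, as points with 95% intervals from edgeR's quasi-likelihood fit. The intervals of *Ret*, *Ngfr* and *Ncam1* leave out 0 before adjustment over all genes, and that of *Gfra1* reaches from -3.79 to 1.98.

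Of 8 ligands of these receptors, 3 were in the table and 2 were tested, both lower in *Hif1aCKO* libraries with a median log2 fold change of -1.03 and 0 called. *Bdnf*, the ligand of TrkB, had 491.6 and 412.7 normalized counts in controls and 475.0, 249.6 and 300.7 in *Hif1aCKO* libraries, with overlap and a log2 fold change of -0.40 (adjusted p = 0.77). *Pspn*, which encodes persephin, had 22 and 21 counts in controls and 3, 6 and 11 in *Hif1aCKO* libraries. All its *Hif1aCKO* values were below the controls, at a log2 fold change of -1.65 (adjusted p = 0.71). *Ntf3*, which encodes the ligand of TrkC, had 9 and 0 counts in controls and 0, 12 and 0 in *Hif1aCKO* libraries and was not tested. The neurons thus held transcripts of *Bdnf* at a level where its receptor *Ntrk2* had at most 19 counts.

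Of 11 related receptors and coreceptors, 10 were in the table and 9 were tested. None was called, 5 were higher and 4 lower, and the median log2 fold change was 0.11. At an unadjusted p under 0.05 there were 2, both higher, where the share of all genes was 7.67%. The groups of 3 of the 9 did not overlap, 2 higher and 1 lower, where the share of all genes was 25.7%. *Tnfrsf19*, a member of the TNF receptor family like *Ngfr*, had 6.25 and 20.4 normalized counts in controls and 50.4, 111.8 and 95.4 in *Hif1aCKO* libraries. Its groups did not overlap, and its log2 fold change was 2.67 with a standard error of 0.71 (adjusted p = 0.59). *Sorcs1*, a member of the sortilin family like *Sort1*, had 65.6 and 108.5 normalized counts in controls and 212.3, 275.6 and 113.8 in *Hif1aCKO* libraries, without overlap, at 2.30 times the control mean (adjusted p = 0.62). Other relatives, named after their values were seen, did not share this direction. *Sorl1*, a further member of the sortilin family, had 62.5 and 133.6 normalized counts in controls and 57.9, 56.9 and 39.9 in *Hif1aCKO* libraries, all below the controls, at a log2 fold change of -0.93. *Nradd*, a close relative of *Ngfr*, overlapped between the groups at a log2 fold change of -0.01. The differences between family members were not tested.

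Of 27 adaptors and signalling proteins downstream of these receptors, 26 were tested, 10 higher and 16 lower, with a median log2 fold change of -0.12 and 0 called. At an unadjusted p under 0.05 there was 1 of the 26, where the share of all genes was 7.67%, so the share in the list was below that of all genes. That gene was *Traf6*, which encodes a ubiquitin ligase recruited by p75. It had 501 and 590.8 normalized counts in controls and 297.0, 347.5 and 415.5 in *Hif1aCKO* libraries, all below the controls, at a log2 fold change of -0.63 (adjusted p = 0.62). The groups of 10 of the 26 did not overlap, 7 lower and 3 higher, where the share of all genes was 25.7%.

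**Figure D4:**
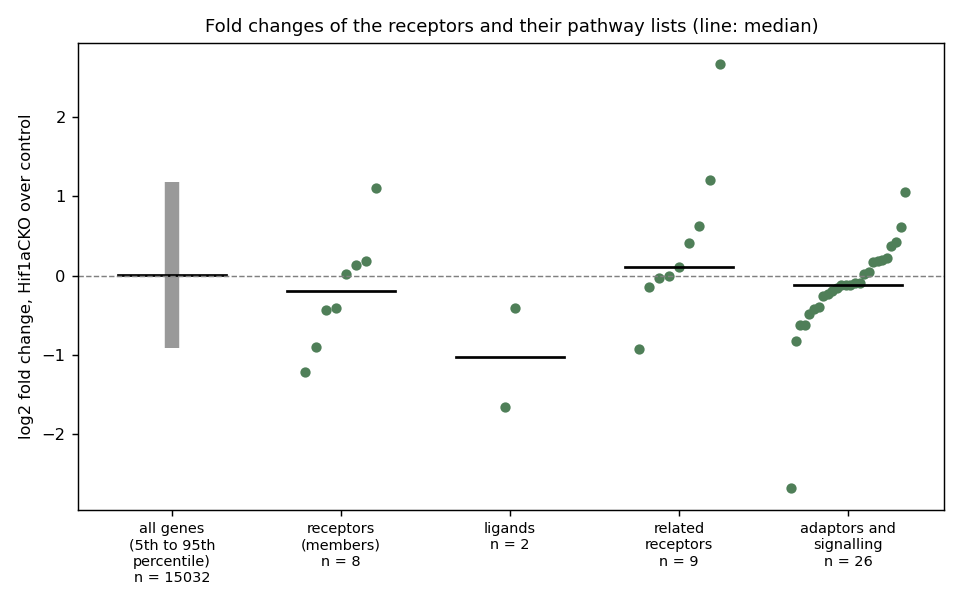
Log2 fold changes (*Hif1aCKO* against control) of the receptors and of the listed ligands, related receptors and adaptors that were tested, with 1 point per gene and a line at the median of each list. A grey bar gives the 5th to 95th percentile of all genes tested. The medians of the 4 lists lie at -0.19, -1.03, 0.11 and -0.12, and *Tnfrsf19* is the highest point at 2.67.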

How the data were processed

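RNA of 5 libraries of sorted sympathetic neurons (2 control, 3 *Hif1aCKO*) was sequenced with reads of 75 bases. The authors trimmed reads with cutadapt 1.18 and Trimmomatic, removed ribosomal reads (Bowtie 1.2.2 and SortMeRNA), aligned the rest with STAR 2.7.0c to GRCm38 and counted uniquely mapped reads per gene with Rsubread. The deposited values are raw counts per gene, which were used as they stand.

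Genotypes were compared in R 4.3.3 with edgeR 4.0.16: filterByExpr, TMM normalization and the two-sided quasi-likelihood test on all genes, with Benjamini-Hochberg adjustment. Calls needed an adjusted p under 0.05, a log2 fold change beyond 0.3 in either direction and 50 or more normalized counts on average. Normalized counts are counts scaled to the mean effective library size. Alternatives were DESeq2 1.42.0, limma 3.58.1 with voom, other normalizations and filters, a sex term and omission of each library. The test was checked on simulated data. Intervals have a 95% level, and floors of 3 counts cover counting error only.

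Gene positions, exons and antisense overlaps came from GENCODE on GRCm38. All 9 receptors were named with values. Of the other lists, genes at an unadjusted p under 0.05 and ligands with a count were named. The members and lists were chosen with earlier results of these data known. Some genes that the study names are not reported here.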

Additional observations from a re-analysis of the deposited data

Results flagged for a closer look

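The labels give no sex, and the libraries were split by *Xist* and *Ddx3y* counts: control 5 and *Hif1aCKO* 3 were read as XX, and control 6 and *Hif1aCKO* 4 and 5 as XY. *Ntrk3* was higher in the XX *Hif1aCKO* library than in the XX control (log2 fold change 0.97) and lower in both XY *Hif1aCKO* libraries than in the XY control (-0.43), a difference of 1.40. *Gfra2* was level in the XX pair (0.01) and lower in both XY libraries (-0.71), a difference of 0.71. These differences between XX and XY libraries were not tested, and with 1 control of each kind, sex and the single control library cannot be told apart.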

How the results depend on the processing

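None of the receptors and none of the listed pathway genes was called under any alternative run, where over all genes DESeq2 called 60, the likelihood ratio test 40, and edgeR's quasi-likelihood test 0 with all libraries and 4 without control 5. Adjusted p ranged over the alternatives from 0.43 to 0.9995 for *Ret*, from 0.34 to 0.9995 for *Ngfr* and from 0.091 to 0.9995 for *Ncam1*. Without 1 library at a time, the log2 fold changes of *Ret* (0.52 to 2.07), *Ngfr* (-1.71 to -0.88), *Ncam1* (-0.56 to -0.31), *Gfra1* (-2.36 to -0.32) and *Gfra2* (-0.57 to -0.25) kept their sign, and those of *Gfra3* (-0.10 to 0.17), *Ntrk3* (-0.27 to 0.68) and *Sort1* (-0.023 to 0.36) did not. Where an arm was left with 1 control, that library was assumed to vary like the others. In XX libraries alone the sign turned for *Gfra2* (0.0052), and in XY libraries alone for *Ntrk3* (-0.43) and *Sort1* (-0.060); the cause was not tested. The receptors at an unadjusted p under 0.05 were 3 in the main run and 2 by DESeq2, where the p of *Ret* was 0.098. By edgeR's quasi-likelihood test they were *Ncam1*, *Ngfr* and *Gfra2* without *Hif1aCKO* 3, where the p of *Ret* was 0.10. They were *Ncam1* and *Ret* without *Hif1aCKO* 4, and *Ncam1* and *Ngfr* without *Hif1aCKO* 5. Without control 6 the log2 fold changes were 0.52 for *Ret*, -0.92 for *Ngfr* and -0.31 for *Ncam1*. The 2 receptors without overlap became 3 to 5, with 5 without control 5, 4 without control 6 and 4 without *Hif1aCKO* 5, as fewer libraries overlap less often by construction. With longest transcripts as lengths, 3 of the 9 receptors kept their place in the order of levels. A fit with bias-adjusted deviances was added after seeing the data and also called 0 receptors. No paired analysis was possible because the groups shared only replicate number 5. At these depths *Ntrk2* and *Gfra1* were limited by their low counts.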

Other observations

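Ratios within a library do not depend on normalization between libraries. Of 3 such ratios, chosen after the values were seen, 2 separated the groups and 1 did not. The level of *Ret* per length was 0.0635 and 0.0254 of that of *Gfra3* in control 5 and 6, and 0.0982, 0.0765 and 0.110 of it in *Hif1aCKO* 3, 4 and 5. The level of *Ngfr* per length was 5.44 and 4.14 times that of *Ntrk3* in controls, and 0.670, 2.35 and 2.71 times in *Hif1aCKO* libraries. The size of this ratio rests on merged exons of 3446 bases for *Ngfr* and 30170 for *Ntrk3*. Before division by length, *Ngfr* had fewer counts than *Ntrk3* in every library. The level of *Ncam1* per length was 0.958 and 1.33 times that of *Gfra3* in controls, and 0.743, 1.06 and 0.734 times in *Hif1aCKO* libraries, so that the groups overlapped. These ratios were not tested.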
